A study of Mus musculus with 5 samples.

Results

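Cycling preneutrophils that already carried transcripts of secondary granule proteins were described here in single-cell RNA data from sorted mouse neutrophils. They numbered 652 of 36720 cells, 587 of 19505 in the pool labelled YO1 and 65 of 17215 in the pool labelled YO2. A cell was a member when it held at least 2 UMIs (unique molecular identifiers, 1 per captured transcript) of the proliferation genes Mki67 and Top2a together, at least 10 UMIs of Ngp, which encodes neutrophilic granule protein, and fewer than 10 UMIs of the azurophil granule proteases and peroxidase Elane, Mpo and Prtn3 together. The members were therefore chosen on UMIs measured in these same cells. Differences from other cells chosen in the same way are given below as descriptions, with no test.

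The cells came from C57BL/6 mice kept in specific-pathogen-free conditions at steady state. Each pool mixed cells of young mice (10 weeks in the sample labels, 8 weeks in the study's design text) and of mice aged 20 months, taken from marrow, blood, spleen, liver, lung and gut (labelled intestine). Live cells positive for CD11b and Ly6G were sorted, and each pool was loaded into 1 BD Rhapsody cartridge, a nanowell device that captures single cells on barcoded beads. A barcode names its pool only, so age and tissue could not be read for any member, and each pool was 1 library. Intervals below are 95% intervals that cover counting error only, exact Clopper-Pearson for shares of cells and exact Poisson for UMI sums.

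Neutrophils arise in the bone marrow from granulocyte-monocyte progenitors. Their granules are filled in order: azurophil granule proteins (elastase, myeloperoxidase) are made first in promyelocytes, secondary granule proteins (lactoferrin, cathelicidin, neutrophilic granule protein) next in myelocytes, and tertiary granule proteins (gelatinase) last. Proliferation ends between the myelocyte and the metamyelocyte, and preneutrophil is the usual name for the committed neutrophil precursor that still divides. The transcription factor C/EBP-epsilon drives the secondary granule genes. B-MYB, FOXM1 and the DREAM complex act on mitotic genes through an element known as CHR (cell cycle genes homology region). CCAAT boxes are also common in promoters of mitotic genes.

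Promoter sequence of 2 mitotic genes (Top2a and Cdk1) and of 2 secondary granule genes (Ngp and Fcnb) is shown because the members hold transcripts of both programs; Top2a and Ngp served in the definition. The windows lie before the RefSeq start site in the GRCm38.p6 table, 5′ to 3′ on the strand of the gene, without bases that a GENCODE vM21 exon of the gene covers. Capitals mark matches on either strand of the CHR letters (TTTGAA), of the CCAAT box and of the C/EBP motif TTGCNNAA. The Top2a window is chr11:99024190-99024439 (minus strand), the Cdk1 window chr10:69352939-69353162 (minus strand), the Ngp window chr9:110419558-110419746 (plus strand) and the Fcnb window chr2:28084886-28085128 (minus strand).
Top2a: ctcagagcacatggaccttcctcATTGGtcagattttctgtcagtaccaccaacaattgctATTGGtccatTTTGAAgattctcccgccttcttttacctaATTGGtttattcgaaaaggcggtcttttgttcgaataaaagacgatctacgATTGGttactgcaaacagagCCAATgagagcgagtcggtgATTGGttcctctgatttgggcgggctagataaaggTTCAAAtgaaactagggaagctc
Cdk1: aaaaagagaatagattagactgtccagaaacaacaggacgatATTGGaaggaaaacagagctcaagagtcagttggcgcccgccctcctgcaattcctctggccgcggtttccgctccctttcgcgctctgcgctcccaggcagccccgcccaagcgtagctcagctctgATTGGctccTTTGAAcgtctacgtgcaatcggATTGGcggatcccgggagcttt
Ngp: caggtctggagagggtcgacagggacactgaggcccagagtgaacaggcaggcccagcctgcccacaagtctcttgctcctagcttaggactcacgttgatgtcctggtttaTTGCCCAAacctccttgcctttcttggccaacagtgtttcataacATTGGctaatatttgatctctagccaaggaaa
Fcnb: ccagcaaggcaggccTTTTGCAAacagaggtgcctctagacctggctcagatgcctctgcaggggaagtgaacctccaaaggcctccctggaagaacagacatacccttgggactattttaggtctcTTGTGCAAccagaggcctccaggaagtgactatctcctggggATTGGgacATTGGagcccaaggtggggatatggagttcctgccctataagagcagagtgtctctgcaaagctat
The Top2a window held 2 CHR matches and 6 CCAAT matches, and the Cdk1 window 1 and 3. The Ngp window held no CHR match, 1 CCAAT match and 1 C/EBP match, and the Fcnb window 2 CCAAT and 2 C/EBP matches. Not every such window held a motif of its class. That of Ccnb1 (not printed, 166 bases) had no CHR match, and that of Camp (not printed, 89 bases) had no match of any of the 3. These 2 windows lack the 84 and 161 bases nearest the start, which exons cover, so matches there were not counted. In the Ltf window, not printed, the single C/EBP match (75 bases before the start) overlapped a CCAAT match.

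Over the full 250 bases before the start, CHR letters stood in 13 of 40 promoters of the mitosis list described below (32.5%) against 16% of 32841 promoters in the table. CCAAT stood in 30 of those 40 (75%) against 33.9%, and both motifs together in 12 (30%) against 5.55%. The C/EBP letters stood in 5 of 12 promoters of the secondary granule list (41.7%) and in 0 of 40 of the mitosis list, against 9.57% of all promoters. In the replication list, 19 of 32 promoters held CCAAT (59.4%) and 3 held CHR letters (9.38%). These are matches of letters and not mapped binding sites.

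Of the genes described, 3 secondary granule genes lie near each other. In GENCODE vM21 (GRCm38), the protein-coding genes Ngp (chr9:110419747-110423012, plus strand), Camp (chr9:109847379-109849617, minus strand) and Ltf (chr9:111019271-111042767, plus strand) share chromosome 9. Fcnb is at chr2:28076378-28084885 on the minus strand, Mki67 at chr7:135689784-135716361 on the minus strand and Top2a at chr11:98992943-99024189 on the minus strand.

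Members made up 3.01% (2.77 to 3.26%) of kept cells in YO1 and 0.378% (0.291 to 0.481%) in YO2. The median member held 5937 UMIs and 2051 genes in YO1 and 6922 UMIs and 2158 genes in YO2. Over all kept cells the medians were 1231 and 1454 UMIs. Members held 9.36% and 1.16% of their pool's UMIs. Because the definition sets minimum UMI counts, deeper cells meet it more readily. How far this sets the depth of members was not tested. In total 3693201 UMIs stood behind the YO1 members and 478954 behind the YO2 members, so YO2 values are the less precise throughout. The 2 pools were thus alike in the depth of members and unlike in their share.

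The given markers were checked in the cells, of which Mki67, Top2a and Ngp served in the definition and Camp and Fcnb did not. Ngp ranged from 11 to 996 UMIs per cell with a median of 313 in YO1, and from 12 to 701 with a median of 363 in YO2. Camp, the cathelicidin of secondary granules, ranged from 0 to 570 (median 120) in YO1 and from 4 to 286 (median 128) in YO2. Fcnb, ficolin B, a lectin of immature neutrophils, ranged from 0 to 55 (median 7) and from 0 to 33 (median 3). Thus Ngp and Camp were abundant in nearly every member, while Fcnb varied from none to many UMIs.

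Lactoferrin, Ltf, was not part of the definition, yet 585 of 587 YO1 members and 65 of 65 YO2 members held at least 5 Ltf UMIs. The median was 59 UMIs per cell in YO1 (range 0 to 212) and 60 in YO2 (range 5 to 120). An intended division of the members by Ltf thus left 2 cells on its low side. By Ltf, the members were placed with the cells that make secondary granule transcripts at high level.

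Shared barcode names and transcripts of other lineages were counted. Of the barcode names, 406 occurred in both pools; 12 YO1 members carried such a name and no member was shared. At least 2 UMIs of the markers of some other lineage were found in 74 of 587 YO1 members and in 42 of 65 YO2 members, of which 39 through the plasma cell list (Jchain, Mzb1, Derl3, Igha). Igha, an immunoglobulin heavy chain, had a UMI in 80% of YO2 members and in 49.5% of all kept YO2 cells, against 4.43% and 2.76% in YO1. In YO1, 1 member held 582 of the members' 611 Igha UMIs. Dendritic cell markers reached at least 10 UMIs in 8 YO1 members and 1 YO2 member, the last with 174 of the 184 such UMIs of YO2. No doublet caller was run and no doublets were removed, and the part of mixed barcodes in the values below was not tested beyond the repeats named.

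The main comparison set the members beside 2234 YO1 and 451 YO2 non-cycling cells with at least 5 Ltf UMIs and fewer than 2 UMIs of Mki67 and Top2a, called Ltf-high cells here, which had medians of 2986 and 4208 UMIs. Levels are CPM, the UMIs of a gene scaled to 1e+06 UMIs in all, summed over the cells of a group within a pool. Of 4586 genes with a mean of at least 20 CPM over both groups in each pool, 580 (12.6%) were at least 2-fold higher in the members in both pools, on the log2 scale with 1 CPM added, and 164 (3.58%) were at least 2-fold lower. Both groups were selected on these cells, so the counts describe them and support nothing further. The median gene was higher by 0.13 (YO1) and 0.15 (YO2) on the log2 scale. With median-of-ratios scaling in place of total UMIs, 496 genes were higher and 244 lower, which moved the share of higher among all such genes from 78% to 67%. In YO1 alone 874 were higher and 356 lower, and in YO2 alone 803 and 248. Without cells holding other-lineage UMIs, 570 were higher and 184 lower, of which 469 and 119 were among the 580 and 164.

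**Figure D1:**
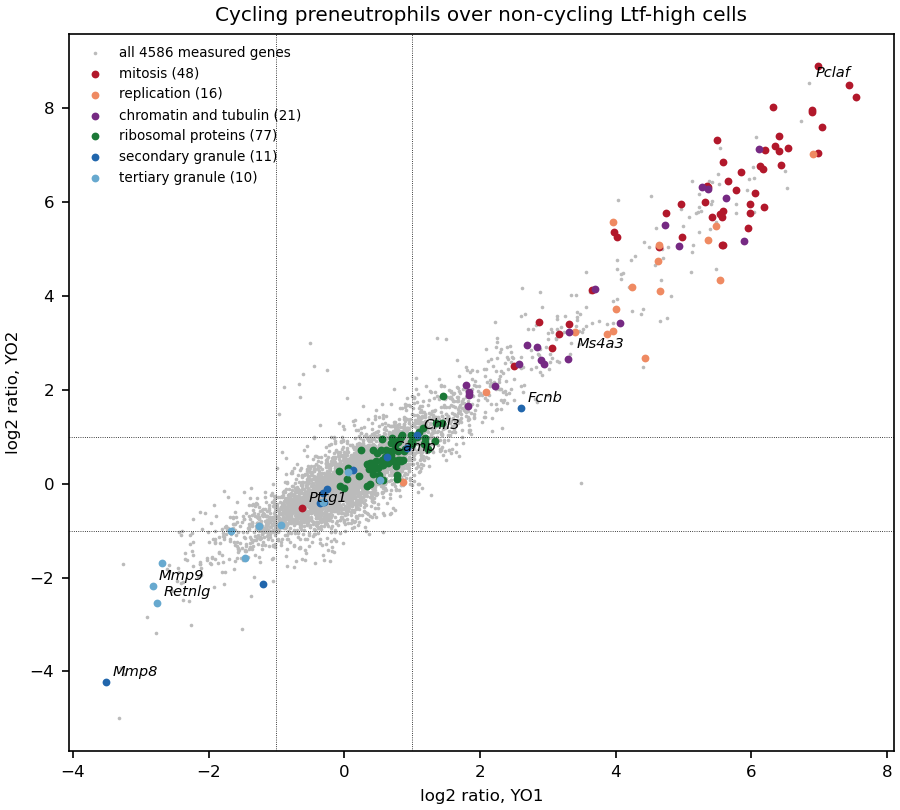
Log2 ratio of CPM (1 CPM added) of cycling preneutrophils over non-cycling Ltf-high cells in YO1 (x axis) and YO2 (y axis), 1 point per measured gene, 4586 in all, with 6 gene lists coloured and dotted lines at 2-fold. Mitosis and chromatin genes lie far to the upper right, ribosomal proteins just right of 0, and Mmp8, Mmp9 and Retnlg to the lower left.

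Mitotic genes were the most different. Of 49 genes in the mitosis list, 48 were measured and 47 were at least 2-fold higher in both pools, with a median log2 ratio of 5.62 in YO1 and 6.09 in YO2. Most genes in this list could pass the level filter only through the members, since Ltf-high cells had few such UMIs, so a call was fixed for a gene that passed. Cdk1, the mitotic kinase, stood at 421 CPM in YO1 members and 384 in YO2 members against 2.2 and 1.01 CPM in Ltf-high cells. Ube2c, the ubiquitin-conjugating enzyme of the anaphase-promoting complex, stood at 556 and 904 CPM against 2.2 and 1.51. Ccnb1, cyclin B1, stood at 159 and 219 CPM against 0.963 and 0.503. Each of these genes was far above the Ltf-high cells in both pools, as the definition by Mki67 and Top2a favours. Pttg1, securin, was the measured exception, at 18.1 and 43.9 CPM in members and 28.5 and 63.4 CPM in Ltf-high cells.

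Replication genes were fewer above the level filter. Of 42 genes, 16 were measured and 15 were at least 2-fold higher in both pools, with median log2 ratios of 4.33 and 4.14. Rrm2, the regulated subunit of ribonucleotide reductase, was at 562 CPM (YO1) and 324 CPM (YO2) in members against 3.71 and 1.51 CPM in Ltf-high cells. Mcm5, a subunit of the replicative helicase, was at 164 and 94 CPM against 9.63 and 1.01 CPM. Both genes were lower in YO2 members than in YO1 members. As in the mitosis list, genes near absent from Ltf-high cells could pass the level filter only through the members, so their call was fixed by passing it.

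Chromatin and tubulin genes were higher throughout: 21 of 21 measured members of that list were at least 2-fold higher in both pools. Hmgb2, a DNA-bending chromatin protein, was at 4369 and 5314 CPM in members and 1219 and 1375 CPM in Ltf-high cells. Stmn1, stathmin, which destabilises microtubules, was at 1158 and 887 CPM against 22.6 and 12.1 CPM. Genes of this list near absent from Ltf-high cells, such as Asf1b (1.93 and 0 CPM), could pass the level filter only through the members. Their call was fixed by passing it. Of the nuclear envelope list, 3 of 8 measured genes were higher, beside 12.6% of all genes. They were Banf1, Tmpo and Lmnb2, which encode a chromatin-tethering factor, a lamina-associated polypeptide and lamin B2. Lbr, the lamin B receptor needed for nuclear lobulation, was at 643 and 685 CPM against 517 and 466 CPM and was not among them.

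Among cyclins, kinases and their inhibitors, 8 of 19 measured genes were at least 2-fold higher and none was lower, beside 12.6% and 3.58% of all genes. The 8 were the atypical repressors E2f7 and E2f8, the pocket protein Rbl1, the inhibitors Cdkn1a and Cdkn2c, the phosphatases Cdc25a and Cdc25b, and Fzr1, the G1 activator of the anaphase-promoting complex. Cdkn2c, an inhibitor of CDK4 and CDK6, was at 114 and 83.5 CPM in members against 3.44 and 2.01 CPM in Ltf-high cells. Genes of this list near absent from Ltf-high cells, such as Cdkn2c, could pass the level filter only through the members. Their call was fixed by passing it. Ccnd3, cyclin D3, was at 880 and 969 CPM in members and 864 and 977 CPM in Ltf-high cells, so its ratio was 1.02 (0.975 to 1.06) and 0.992 (0.894 to 1.1). Its difference between cycling and non-cycling cells was within counting error in each pool.

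By size alone, outside the replication, mitosis and histone lists, the 15 highest genes against Ltf-high cells were Pclaf, Spc24, Asf1b, Ncapg, Fbxo5, Dlgap5, Kif15, Cit, Stmn1, Prr11, Sgo2a, Knl1, Tuba1b, Ncapd2 and Trim59. Pclaf, the PCNA clamp-associated factor, led them at 879 and 743 CPM against 6.6 and 1.01 CPM. The highest of the 15 in Ltf-high cells was Tuba1b, at 31.6 CPM in YO1. All 15 could reach the mean of 50 CPM only through the members, so their call was fixed by passing it. Spc24 and Knl1 are kinetochore proteins, and Ncapg and Ncapd2 are condensin subunits.

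Granule genes differed by granule class. Of 4 measured azurophil genes (Elane, Mpo and Prtn3 left aside as part of the definition), 1 was higher and none lower. Of all genes, 12.6% were higher and 3.58% lower in members. The 1 gene was Ms4a3, a membrane protein of granulocyte-monocyte progenitors and their progeny. It was at 118 CPM (YO1) and 50.1 CPM (YO2) in members against 10.9 and 6.54 CPM in Ltf-high cells, a ratio of 10.9 (8.53 to 14) and 7.66 (3.75 to 16.4). At its levels in Ltf-high cells Ms4a3 could pass the level filter only through the members, so its call was fixed by passing it. Per cell it was low, with a median of 0 UMIs in both pools and a highest value of 9. With the cells of other-lineage UMIs left out, which leaves 513 YO1 and 23 YO2 members, Ms4a3 was no longer among the genes called.

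Of 11 measured secondary granule genes, 2 were higher (Fcnb and Chil3), 2 lower (Mmp8 and Olfm4) and 7 neither. Of all genes, 12.6% were higher and 3.58% lower. Fcnb was at 1680 CPM (YO1) and 706 CPM (YO2) in members and 274 and 230 CPM in Ltf-high cells, a ratio of 6.12 (5.82 to 6.45) and 3.06 (2.65 to 3.53). Chil3, the chitinase-like protein Ym1, was at 12028 and 10986 CPM against 5725 and 5359 CPM, a ratio of 2.1 (2.07 to 2.13) and 2.05 (1.98 to 2.12). Camp was at 20195 and 18428 CPM against 13065 and 12464 CPM, 1.55-fold and 1.48-fold higher and below the 2-fold mark. Lcn2, lipocalin 2, which withholds iron from bacteria, was at 15210 and 13663 CPM against 19413 and 18258 CPM. With median-of-ratios scaling Chil3 fell short of 2-fold, so 1 of the 11 was higher. Among these genes Fcnb and Chil3 leaned to the cycling cells and Lcn2 to the non-cycling ones, in both pools.

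Mmp8, the neutrophil collagenase, ranked first among the genes lower in members. It was at 570 CPM (YO1) and 288 CPM (YO2) in members against 6497 and 5396 CPM in Ltf-high cells, a ratio of 0.0878 (0.084 to 0.0917) and 0.0534 (0.0448 to 0.0632). The median member held 0 Mmp8 UMIs in each pool, while single members reached 78 and 59. Olfm4, olfactomedin 4, present in a subset of neutrophils, was at 212 and 104 CPM against 488 and 462 CPM. Mmp8 thus separated the members from Ltf-high cells in the direction opposite to Fcnb, although both genes stand in the secondary granule list.

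Of 10 tertiary granule genes, 5 were at least 2-fold lower (Mmp9, Fpr1, Fpr2, Slc11a1 and Retnlg) and none was higher, beside 3.58% and 12.6% of all genes. Without cells of other-lineage UMIs, 3 were lower. Mmp9, gelatinase B, was at 571 and 660 CPM in members and 4049 and 2982 CPM in Ltf-high cells. Retnlg, resistin-like gamma, was at 1919 and 1645 CPM against 12998 and 9536 CPM. Its median was 1 UMI per member in YO1 and 2 in YO2, with single cells at 230 and 319, so a few cells supplied much of the sum. Cybb, the catalytic subunit of the phagocyte oxidase, was at 3369 and 3481 CPM against 4179 and 4556 CPM. Against Ltf-high cells, the late granule genes were low in the members as a group, and the oxidase gene differed little.

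The calgranulins S100a8 and S100a9, the major cytosolic proteins of neutrophils, were at 59454 and 69076 CPM and at 65264 and 63353 CPM in YO1 and YO2 members. In Ltf-high cells they were at 66279 and 71766 CPM and at 75637 and 65778 CPM. S100a6 and S100a11 were the 2 of 4 measured S100 genes that were lower, beside 3.58% of all genes. S100a11 was at 2772 and 3101 CPM in members against 6408 and 6515 CPM. The calgranulin transcripts were therefore at nearly the level of the non-cycling cells in both pools.

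Among 14 measured transcription factors of granulopoiesis, 2 were higher (Gfi1 and Myb) and 2 lower (Rara and Junb), beside 12.6% and 3.58% of all genes. The number higher was thus near the share of all genes. Gfi1, a repressor required for neutrophil commitment, was at 56.9 and 60.6 CPM in members and 13.2 and 15.6 CPM in Ltf-high cells. Myb, a factor of immature progenitors, was at 101 and 79.3 CPM against 38.1 and 35.7 CPM. With median-of-ratios scaling only Gfi1 of these 2 stayed above 2-fold. Cebpe, which encodes C/EBP-epsilon, was at 348 CPM (YO1) and 301 CPM (YO2) against 197 and 194 CPM, a ratio of 1.77 (1.64 to 1.91) and 1.55 (1.27 to 1.88). Among the 4 groups in the plot of granule and maturation genes, Cebpe stood highest in the members.

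**Figure D2:**
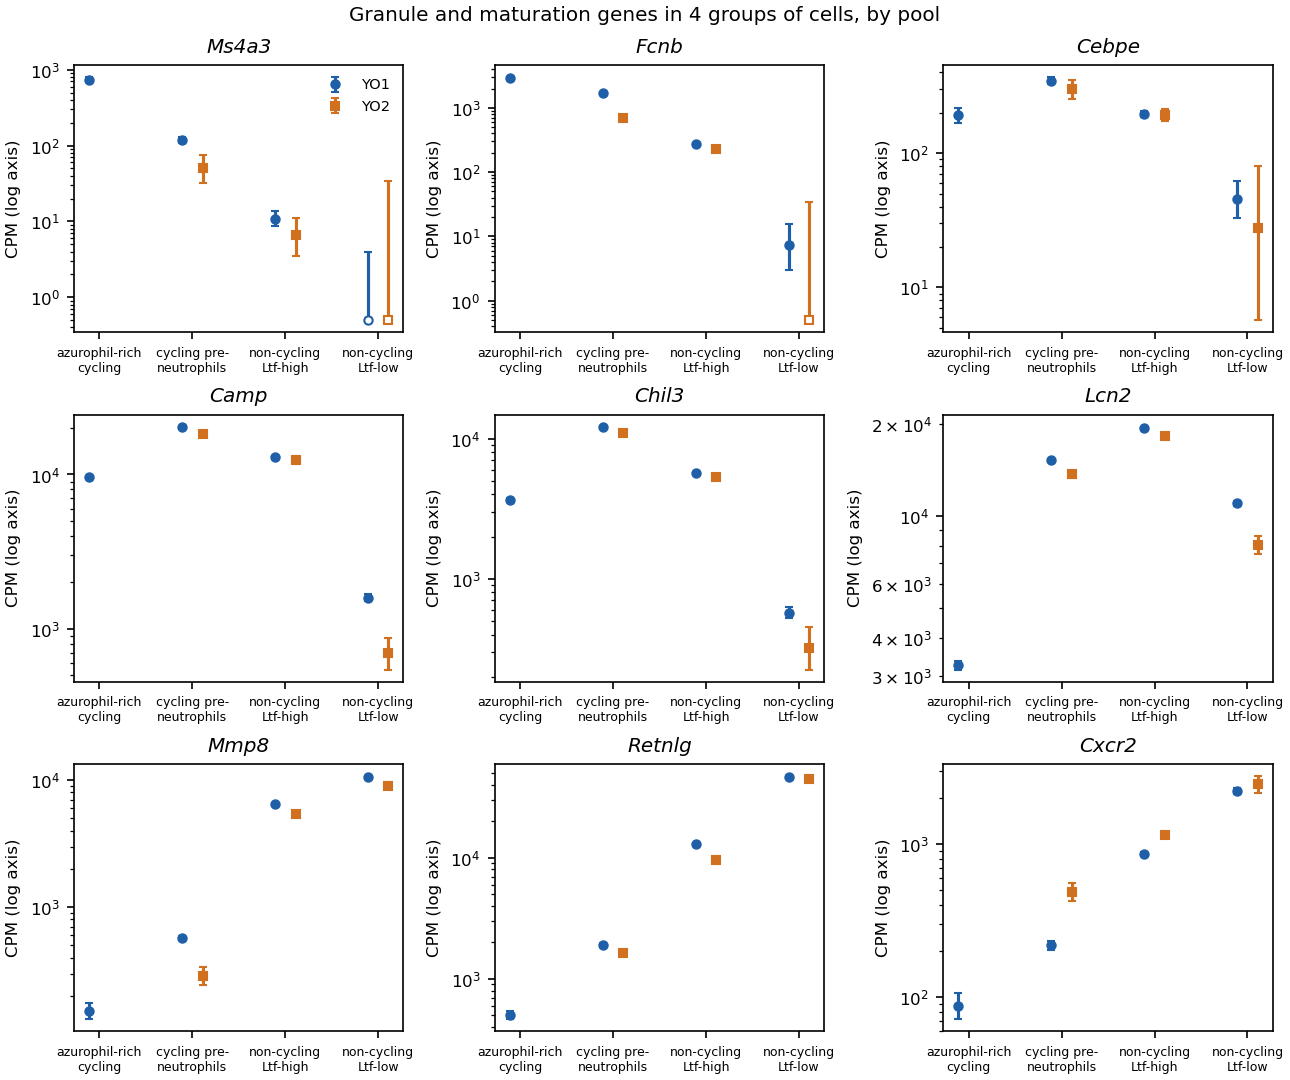
CPM on a log axis of 9 genes in azurophil-rich cycling cells (YO1 only), cycling preneutrophils, non-cycling Ltf-high cells and non-cycling Ltf-low cells; points are pool sums (circles YO1, squares YO2), bars 95% Poisson intervals, and open symbols at the base are sums of 0. Ms4a3 and Fcnb decline from left to right, Camp, Chil3 and Cebpe are highest in cycling preneutrophils, and Mmp8, Retnlg and Cxcr2 climb from left to right.

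Surface and trafficking genes were lower where they differed: 5 of 19 measured genes (Cxcr2, Selplg, Csf3r, Ly6g and Trem1) were at least 2-fold lower and none was higher. The number lower was 8 with median-of-ratios scaling and 3 without cells of other-lineage UMIs. Of all genes, 3.58% were lower and 12.6% higher. Cxcr2, the chemokine receptor that draws mature neutrophils out of marrow, was at 218 CPM (YO1) and 489 CPM (YO2) in members against 869 and 1154 CPM in Ltf-high cells. Ly6g, whose protein was used in the sort, was at 580 and 925 CPM against 1594 and 2057 CPM. Cxcr4, the receptor that retains neutrophils in marrow, was at 344 and 451 CPM against 403 and 391 CPM. Cxcr2 and Ly6g were higher in YO2 than in YO1 in both kinds of cell.

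The 15 lowest genes by size were Mmp8, Thbs1, Retnlg, Adam8, Bmx, Mmp9, Hacd4, Ceacam10, Slfn1, Dhrs9, Map4k4, Tcp11l2, Gng2, Timp2 and Clec4e. Thbs1, thrombospondin 1, was at 26.8 and 6.26 CPM in members and 278 and 231 CPM in Ltf-high cells. Thbs1 and Bmx (30.6 and 25.05 CPM in members) stood so low in members that reaching the mean of 50 CPM fixed their call. Adam8, a membrane metalloprotease, was at 88 and 115 CPM against 514 and 566 CPM.

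Inflammatory and interferon genes were lower in members where they differed. Of 10 measured inflammatory genes, 3 were lower (Il1rn, Ptgs2 and Il1r2), of 5 measured interferon-stimulated genes 2 were lower (Rsad2 and Irf7), and of 10 measured immediate early genes 2 were lower (Junb and Zfp36). None of these 3 lists had a gene that was higher. Of all genes, 3.58% were lower and 12.6% higher, and these lists are short. With median-of-ratios scaling 5 immediate early genes were lower, and without cells of other-lineage UMIs 4 were. Il1rn, which blocks the interleukin-1 receptor, was at 34.7 and 66.8 CPM in members against 176 and 210 CPM in Ltf-high cells.

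Few genes of protein synthesis passed 2-fold against Ltf-high cells. Of 77 measured ribosomal protein genes, 5 were at least 2-fold higher, a smaller share than the 12.6% of all genes, and none was lower, with median log2 ratios of 0.69 and 0.57 against 0.13 and 0.15 for all genes. Rpl3 was at 147 and 148 CPM in members and 53.4 and 40.2 CPM in Ltf-high cells. Ncl and Npm1, nucleolin and nucleophosmin, were the 2 measured ribosome biogenesis genes and both were higher. The 16 listed ribosome biogenesis genes summed 2.75-fold (2.582 to 2.93) and 2.425-fold (2.056 to 2.855) higher in members than in Ltf-high cells. Ribosomal protein genes summed 1.51-fold and 1.4-fold higher, and genes of the endoplasmic reticulum and secretion 1.3-fold and 1.22-fold higher. Of 18 measured genes of the endoplasmic reticulum and secretion, only Manf passed 2-fold, at 81.5 and 83.5 CPM against 36.3 and 28.2 CPM. In glycolysis 1 of 14 (Tpi1, and none with median-of-ratios scaling), in the nuclear-encoded respiratory chain 7 of 69, and among mitochondrially encoded genes 0 of 12 were higher.

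The second comparison set the members beside cycling cells with at least 10 UMIs of Elane, Mpo and Prtn3, called azurophil-rich cycling cells. There were 121 in YO1, with a median of 10072 UMIs. In YO2 there were 0 of 17215, which allows a share of up to 0.0174% (3 cells of the total), so this comparison has 1 pool. Of 5795 measured genes, 226 (3.9%) were at least 2-fold higher in members and 812 (14%) at least 2-fold lower. The median log2 ratio of all genes was -0.17. Median-of-ratios scaling gave 357 higher and 641 lower, which moved the share of higher from 21.8% to 35.8%.

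Azurophil-rich cycling cells also held transcripts of other granulocytes, since Prg2 and Epx of eosinophils stood at 1262 and 109 CPM and Mcpt8 and Cpa3 of basophils and mast cells at 282 and 143 CPM. Without cells that held at least 2 UMIs of those lists, 107 of the 121 remained, Prg2 was at 2.85 CPM, and 205 genes were higher and 739 lower, of which 187 and 720 were among the first 226 and 812.

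Genes of protein synthesis were lower in members as whole lists. Of 80 measured ribosomal protein genes, 78 were at least 2-fold lower in members, and the summed level of the 83 listed genes was 30968 CPM in members against 103848 CPM in azurophil-rich cycling cells, 3.35-fold lower (3.33 to 3.38). Of 13 measured ribosome biogenesis genes 13 were lower, of 22 genes of the endoplasmic reticulum and secretion 17, and of 12 mitochondrially encoded genes 10. Calr, the chaperone calreticulin, was at 153 CPM in members and 1447 CPM in azurophil-rich cycling cells. Npm1 was at 158 CPM against 870 CPM. By level, the members lay nearer to the Ltf-high cells, whose ribosomal protein sum was 20513 CPM in YO1 and 20006 CPM in YO2.

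Abundant granule transcripts take a share of every total. The 7 genes S100a8, S100a9, Ngp, Camp, Lcn2, Chil3 and Ltf held 23.4% of UMIs in YO1 members, 24.1% in YO1 Ltf-high cells and 8.58% in azurophil-rich cycling cells. As CPM of the remaining UMIs, ribosomal protein genes summed to 40421 in members, 27036 in Ltf-high cells and 113599 in azurophil-rich cycling cells. The order of the groups was the same with and without these 7 genes.

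**Figure D3:**
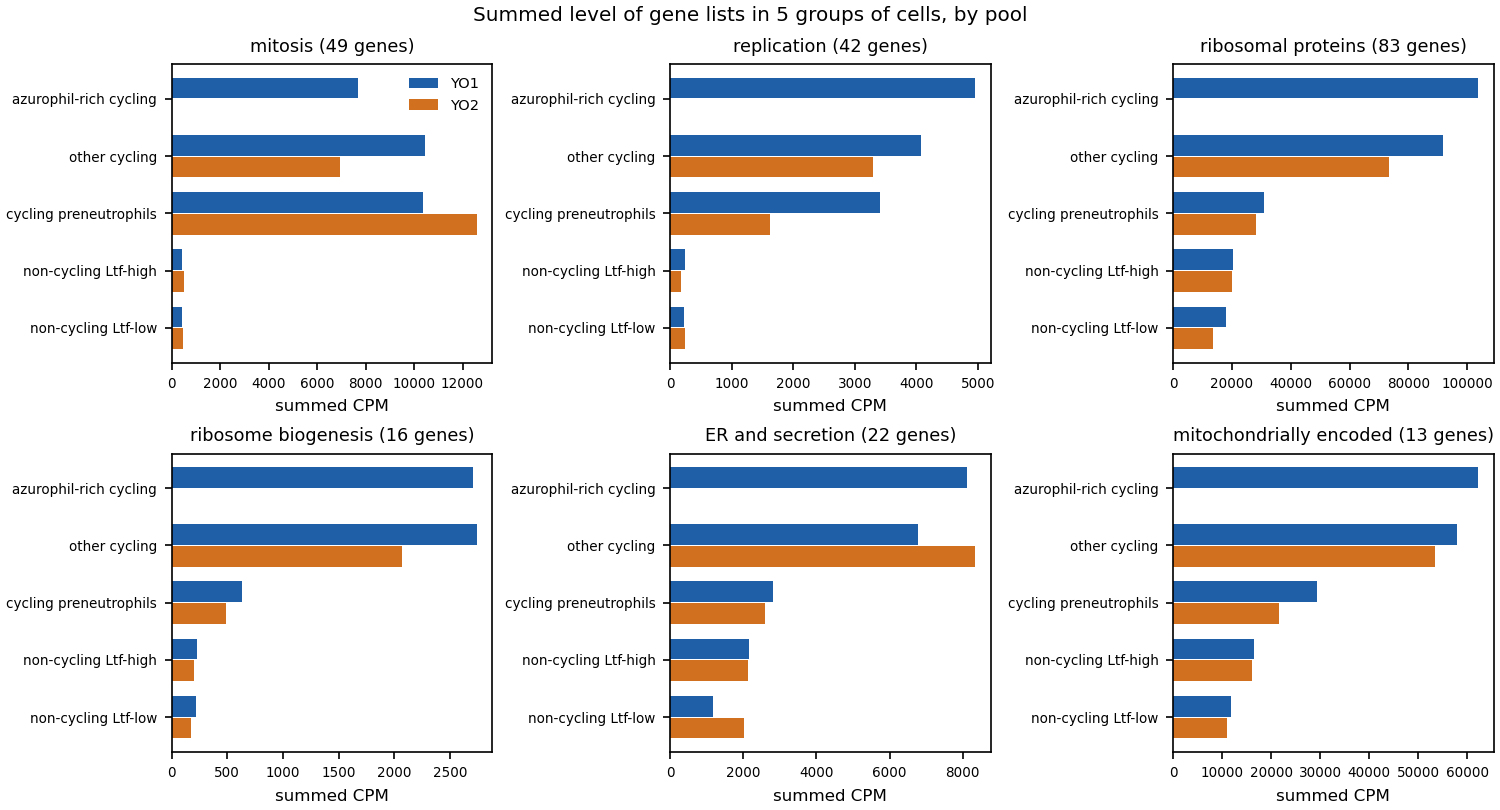
Summed CPM (bars from 0) of 6 gene lists in 5 groups of cells, blue for YO1 and orange for YO2; no azurophil-rich cycling cell was found in YO2. Cycling preneutrophils stand with the other cycling cells for mitosis genes but nearer to the non-cycling cells for ribosomal proteins, ribosome biogenesis and secretion.

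Of 25 measured cyclins, kinases and inhibitors, 3 were lower and 2 higher in members, beside 14% and 3.9% of all genes. Ccnd2 (cyclin D2), Cdk4 and Cdk6 were the 3 lower, whereas Cdkn2d, an inhibitor of CDK4 and CDK6, and Ccng2, an atypical cyclin, were higher. Cdk6 was at 63.4 CPM in members against 377 CPM, and Ccnd2 at 10.8 against 145 CPM. Ccnd2 stood so low in members that passing the level filter fixed its call. Cdkn2d was at 332 CPM against 115 CPM. Of 39 measured replication genes, 10 were lower, among them Mcm2, Mcm3, Mcm6, Cdc6 and Cdt1, which license origins, and none was higher. Of 47 measured mitosis genes, 1 (Kif22) was higher and none lower. The list summed to 10374 CPM in members and 7681 CPM in azurophil-rich cycling cells, a ratio of 1.35 (1.32 to 1.38), and both groups were gated on Mki67 and Top2a.

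Transcription factors of progenitors were lower in members: Cebpa, Gfi1, Myb, Myc and Irf8, 5 of 17 measured, while Klf6 was higher. Of all genes, 14% were lower and 3.9% higher. Myc was at 1.35 CPM in members against 48.4 CPM, and Myb at 101 CPM against 380 CPM. Myc stood so low in members that passing the level filter fixed its call. Fcnb, at 1680 CPM against 2882 CPM in azurophil-rich cycling cells, was 0.583 times as high (0.559 to 0.608). Of the secondary granule list, 6 of 11 were at least 2-fold higher in members, namely Camp, Lcn2, Chil3, Cd177, Mmp8 and Orm1. Of 9 measured tertiary granule genes, 6 were higher (Mmp9, Mmp25, Fpr1, Fpr2, Cybb and Retnlg) and none was lower. Kit, Cd34 and Itga4, surface proteins of progenitors, were lower and Cxcr2, Itgb2, Ly6g and Trem1 higher.

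By size, the 10 highest genes in members were St3gal5, Igha, Plbd1, Ly6g, Fpr2, Crispld2, Inhba, Mmp25, Ifitm6 and Syne2, of which Igha rests on the single cell named above. St3gal5, Igha, Plbd1, Crispld2 and Syne2 stood at only 12.3 to 25.45 CPM in azurophil-rich cycling cells. For genes that low there, reaching the mean of 50 CPM fixed the call. St3gal5, a sialyltransferase that makes the ganglioside GM3, was at 376 CPM against 23.8 CPM, and Inhba, the activin A subunit, at 354 CPM against 47.6 CPM. The 10 lowest were Prg2, Ctsg, Mcpt8, Prss34, Epx, Cpa3, Cst7, Pebp1, Gstm1 and Lgals1, of which 5 mark eosinophils, basophils or mast cells. All of these but Gstm1 (41.2 CPM in members) stood so low in members that reaching that mean fixed their call. Ctsg, cathepsin G of azurophil granules, was at 3.79 CPM in members against 1187 CPM.

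The low ribosomal level was also seen beside other cycling cells, those with fewer than 10 Ngp UMIs and fewer than 10 azurophil UMIs (120 in YO1, 117 in YO2). Other-lineage markers were present in 104 of these 120 and 110 of these 117 cells (at least 2 UMIs), so their profile mixes several cell types. Of 5564 measured genes, 401 (7.21%) were at least 2-fold higher in members in both pools and 986 (17.7%) lower. Median-of-ratios scaling gave 547 and 733 and moved the share of higher from 28.9% to 42.7%. Ribosomal protein genes were lower for 67 of 80, and their sum was 91637 CPM in YO1 and 73385 CPM in YO2 other cycling cells against 30968 and 28034 CPM in members, 2.96-fold (2.93 to 2.99) and 2.62-fold (2.57 to 2.67) lower. Of 9 measured tertiary granule genes, 7 were higher in members and none was lower. None of 49 mitosis genes and none of 34 replication genes differed by 2-fold in both pools. Both groups were gated on Mki67 and Top2a, and their list sums still differed in YO2, where replication genes summed 2.04-fold lower and mitosis genes 1.82-fold (1.75 to 1.88) higher in members.

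The third comparison was with non-cycling cells that kept at least 10 Ngp UMIs but had fewer than 5 Ltf UMIs, called Ltf-low cells, 443 in YO1 and 33 in YO2, with medians of 1980 and 2784 UMIs. Of 4352 measured genes, 940 (21.6%) were at least 2-fold higher in members in both pools and 482 (11.1%) lower. With median-of-ratios scaling the counts were 730 and 650, and the share of higher moved from 66.1% to 52.9%. In YO1 alone 1452 were higher and 790 lower, and in YO2 alone 1432 and 798. The YO2 Ltf-low sum held 108299 UMIs, and when the counting interval of each ratio also had to lie off 1, 673 were higher and 412 lower.

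Fcnb led the genes higher than in Ltf-low cells, at 1680 and 706 CPM in members against 7.46 CPM in YO1, while the YO2 Ltf-low cells had no Fcnb UMI. Orm1, the acute-phase protein orosomucoid 1, was at 254 and 305 CPM against 2.13 CPM in YO1 and no UMI in YO2. Fcnb and Orm1 could pass the level filter here only through the members. In the other direction, Retnlg was at 46532 and 44719 CPM in Ltf-low cells against 1919 and 1645 CPM in members. Mmp8 was at 10490 and 9058 CPM in Ltf-low cells, and Cxcr2 at 2227 and 2465 CPM. Of 19 measured surface genes, 10 were lower in members and none higher, beside 11.1% and 21.6% of all genes. For these genes the Ltf-high cells lay between the members and the Ltf-low cells in both pools.

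Members differed among themselves in the balance of replication and mitosis transcripts. UMIs of the replication list and of the mitosis list were counted in each cell, and a cell with more of the former was called replication-rich. The gate on Mki67 and Top2a and the unequal lists (42 and 49 genes) can shape these shares, which was not tested. The shares are therefore not shares of cell cycle phases. In YO1, 97 of 587 members (16.5%, 13.6 to 19.8%) were replication-rich and 481 (81.9%) mitosis-rich, with 3 tied and 6 with under 3 UMIs of each list. In YO2, 0 of 65 were replication-rich (upper limit 5.52%), 64 were mitosis-rich and 1 had few of either. After every cell was thinned to 1000 UMIs, which left out 11 and 1 members, 94 of 576 (16.3%, 13.4 to 19.6%) and 1 of 64 (1.56%, 0.0396 to 8.4%) were replication-rich. YO2 members were thus almost without cells in which replication transcripts prevailed, at either depth.

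**Figure D4:**
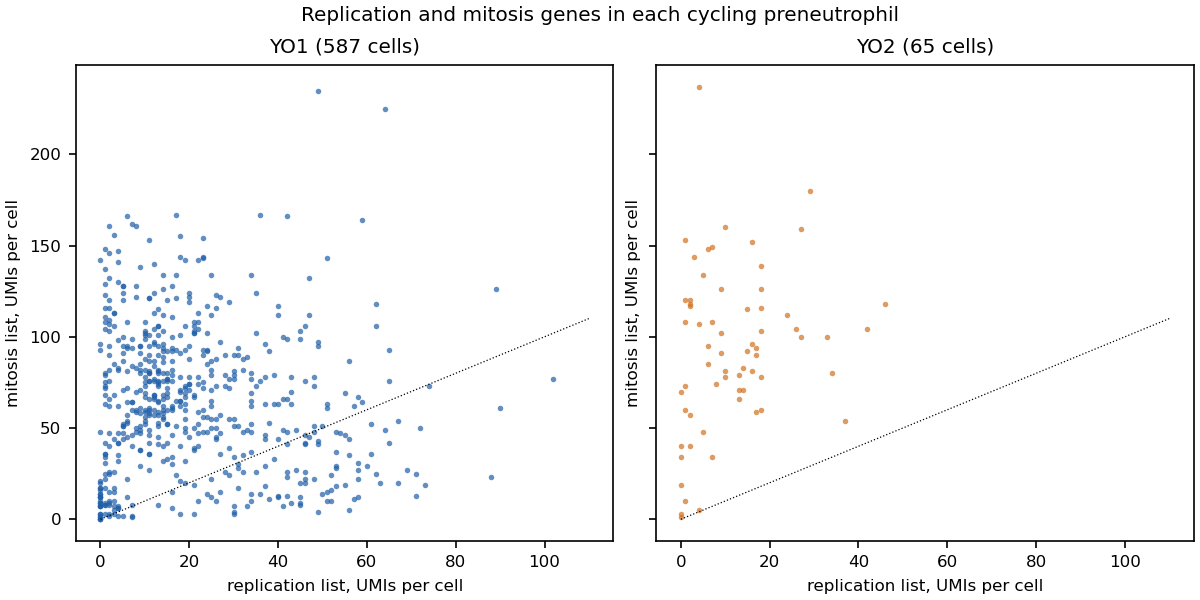
UMIs of the replication list (x axis) and of the mitosis list (y axis) in each member, 587 cells of YO1 at left and 65 of YO2 at right, with a dotted line of equal counts. In YO1 97 cells lie below the line, and in YO2 none does.

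The pool sums showed the same. Replication genes summed to 3415 CPM in YO1 members and 1616 CPM in YO2 members, and mitosis genes to 10374 and 12592 CPM. In other cycling cells, replication genes summed to 4072 and 3297 CPM and mitosis genes to 10454 and 6925 CPM. YO2 was below YO1 for replication genes in both kinds of cycling cell, and by the wider margin in the members, while for mitosis genes only the members were higher in YO2.

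Within YO1, replication-rich members had the higher levels of the G1/S regulators E2f1 (140 CPM against 18.3 CPM in mitosis-rich members), Ccne2 (194 against 27.1 CPM) and Ccne1 (88.7 against 14.1 CPM), cyclins that start S phase. Mitosis-rich members had more Aspm, a spindle-pole protein (97.1 against 8.36 CPM), Prr11 (137 against 16.7 CPM) and Cdkn3 (182 against 38.5 CPM). Fcnb was at 2683 CPM (2554 to 2818) in replication-rich and 1484 CPM (1441 to 1528) in mitosis-rich members. Cebpe was at 251 CPM (212 to 294) and 368 CPM (347 to 390). Ltf, at 10171 and 9946 CPM, and Camp, at 18529 and 20507 CPM, differed little between the 2 subsets. Genes of other cell types also moved with the split. The antigen-presentation genes H2-Ab1 (478 against 105 CPM), H2-Aa (340 against 106 CPM) and Cd74 (587 against 184 CPM) were higher in replication-rich members, and the immunoglobulin genes Igha and Igkc in mitosis-rich ones, Igha mostly through the 1 cell with 582 UMIs. Their part in the other differences was not tested. The subsets were split on genes of the same cells, so the cell cycle genes among these repeat the split.

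The members also spread along the azurophil limit, in bands set after the data had been seen. In YO1, 461 members had no UMI of Elane, Mpo or Prtn3, 100 had 1 to 4 and 26 had 5 to 9. In YO2, 61 had none and 4 had 1 to 4. Fcnb was at 1354 CPM (1311 to 1398), 2355 CPM (2245 to 2468) and 3532 CPM (3285 to 3793) across the 3 YO1 bands. Ms4a3 was at 97.3, 156 and 252 CPM. Ltf went the other way, at 10677, 8579 and 6336 CPM, while Camp was at 20371, 19742 and 19502 CPM. Ribosomal protein genes summed to 27733, 38105 and 47874 CPM. In YO1, members with more azurophil transcripts thus had more Fcnb, Ms4a3 and ribosomal transcripts and fewer of Ltf, and their cells were deeper, with medians of 5701, 7013 and 7661 UMIs. The 4 YO2 cells with 1 to 4 UMIs also had the higher Fcnb (1782 against 618 CPM in the 61 without) and ribosomal sum (34214 against 27533 CPM). Their Ltf was higher and not lower, at 9911 against 8194 CPM, and their Camp was at 23580 against 18010 CPM.

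**Figure D5:**
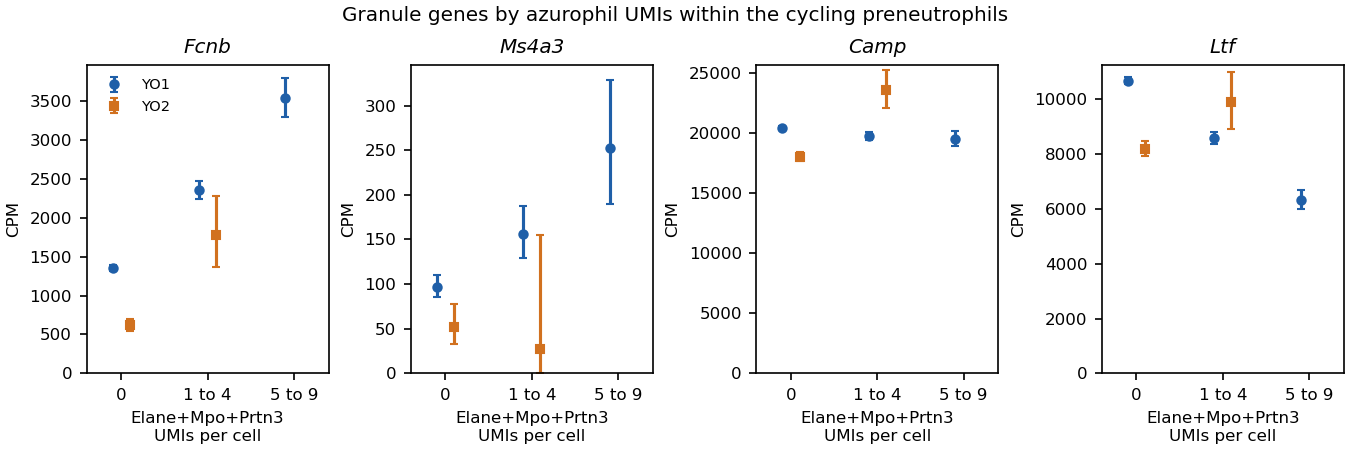
CPM (axes from 0) of Fcnb, Ms4a3, Camp and Ltf in members with 0, 1 to 4 and 5 to 9 UMIs of Elane, Mpo and Prtn3, circles for YO1, squares for YO2, bars 95% Poisson intervals. In YO1 Fcnb and Ms4a3 climb from band to band, Ltf declines from 10677 to 6336 CPM, and Camp lies between 20371 and 19502 CPM.

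Cells near the limits were compared without a test. In YO1, 26 members with 5 to 9 azurophil UMIs had medians of 31 Fcnb and 49 Ltf UMIs, and 23 cycling cells just outside, with 10 to 19, had medians of 31 and 39. Cells with 1 UMI of Mki67 and Top2a, just outside, numbered 97 in YO1 and 14 in YO2, with medians of 2 mitosis UMIs in each pool. The 38 and 4 cells with exactly 2 had medians of 8 and 11. At this limit the YO1 medians also differed for Camp, 59 UMIs outside and 83.5 inside, and for Fcnb, 0 outside and 3 inside. Below the Ngp limit, 3 YO1 cells and no YO2 cell had 5 to 9 UMIs.

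The 2 pools gave similar profiles of the members. Of 5221 genes measured in both, 93% lay within 2-fold, and 367 were at least 2-fold apart. Immediate early and inflammatory genes were higher in YO2: Egr1 was at 14.3 CPM in YO1 members and 180 CPM in YO2 members, Fos at 76.6 and 478 CPM, and Il1b at 226 and 852 CPM. In Ltf-high cells Egr1 was at 35.6 and 295 CPM and Fos at 269 and 930 CPM, so for Egr1 and Fos the pool difference was not seen in members alone. It differed for Lpl, at 15.2 and 152 CPM in members and 28.9 and 35.7 CPM in Ltf-high cells. Ccl5 was at 9.75 and 91.9 CPM in members and 17.3 and 16.6 CPM in Ltf-high cells. The YO2 member sums were 73 Lpl and 44 Ccl5 UMIs. Their spread over single members, and the part of members with other-lineage UMIs in them, was not tested. Among the genes higher in YO1 were Mcm6 (102 against 16.7 CPM), Topbp1 (94 against 25.1 CPM), Dut (82.6 against 25.1 CPM) and Lig1 (236 against 79.3 CPM), all genes of DNA replication. The pools differ in cartridge and in an unknown mix of tissues and ages, and these cannot be told apart.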

How the data were processed

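The deposited matrix held whole-number UMI counts of 21995 genes in 20352 YO1 and 17720 YO2 barcodes, and the authors' counts were used as deposited. Per the submitters' processing notes the build was mm10. Which aligner and cell caller were used is not given in the sources used here. Tag and antibody libraries played no part.

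The filter required 200 or more UMIs, 100 or more genes and a mitochondrial share below 20%, and it removed 847 YO1 and 505 YO2 barcodes. Counts were summed over the cells of each group within a pool and divided by the group's total (CPM). A gene was called at least 2-fold apart from the log2 ratio with 1 CPM added, in the same direction in both pools, if its mean over both groups was at least 20 CPM in each pool. With 1 library per pool and groups chosen on the same counts, no test was run. The rule was run on simulated sums with counting error only and changes larger than 2-fold. Its behaviour at 2-fold, or with spread between cells, was not tested. The members and the gene lists were chosen with earlier results of these data known.

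Genes named were the definition genes and given markers, up to 6 per list (the 3 highest in members and the 3 with the largest ratio), and those largest by the smaller of both pools' ratios with a mean of at least 50 CPM, gene models, ribosomal, mitochondrial and cell cycle list genes left aside (15 per direction against Ltf-high cells, 10 in the other comparisons). Genes of a fixed list given as values besides these were chosen after their values were seen. Alternatives changed the scaling, the added CPM, the level filter, the weighting of cells, cell depth and each limit of the definition. Promoters came from RefSeq. Python 3.11.15, NumPy 2.4.6, SciPy 1.17.1 and matplotlib 3.10.9 were used.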

Additional observations from a re-analysis of the deposited data

How the results depend on the processing

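The share of members kept within its counting interval under each shifted limit of the definition and a minimum of 500 UMIs. Without cells of other-lineage UMIs it was 3.65% of the remaining YO1 cells and 0.239% of those of YO2, and with plasma cell markers not counted, an alternative chosen after seeing the data, 3.68% and 0.486%. Defined on 1000 thinned UMIs it was 0.265% in YO2; the cause was not tested.

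Counts of genes moved with the level filter and with the use of a single pool. Against Ltf-high cells, 1134 were higher and 254 lower at a minimum of 5 CPM, and 243 and 95 at 50 CPM. With a single pool in use, 803 to 874 were higher and 248 to 356 lower, as fewer conditions had to be met. Against azurophil-rich cycling cells the counts were 390 and 1664 at 5 CPM, 141 and 387 at 50 CPM, and 357 higher with median-of-ratios scaling. Against Ltf-low cells 1822 were higher at 5 CPM and 414 at 50 CPM, and with a single pool 1432 to 1452 were higher and 790 to 798 lower. Against other cycling cells, in alternatives chosen after seeing the data, 2010 were lower at 5 CPM and 470 at 50 CPM, and with a single pool 515 to 657 were higher and 1497 to 1546 lower. No named gene called changed direction. A single pool could not reverse a call, as calls needed the same direction in both pools. Among 134 named genes, 2234 alternative values differed from the reported one by less than the SD of the 2 pools and 312 by more. Values from a single pool, under another level filter or with the counting-interval condition could not differ by more than this SD. They are among the 2234, so the tally overstates how little the values moved. No paired analysis was possible because no result comes from a test. A YO1 or YO2 value alone could not be had against azurophil-rich cycling cells, which YO2 lacked. Depth limits YO2, with 65 members.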
